A study of Homo sapiens with 2 samples.

Results

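The miRNAs described here are those of the C19MC cluster, the large primate-specific miRNA cluster on chromosome 19, measured in Huh7 cells exposed to Y27632 and in control Huh7 cells. Huh7 is an established line from a human hepatocellular carcinoma, and Y27632 is a small-molecule kinase inhibitor. The Y27632 group was 1 array from cells harvested after 12 hours in 10 µM Y27632. The control group was 1 array from Huh7 cells whose title states neither a vehicle nor a time of harvest, so such differences and the effect of the compound cannot be told apart. The labels attach the treatment text to both samples, and the control was identified by its title and the series design, on which the meaning of every ratio below depends. Both cultures were kept in serum-supplemented Dulbecco's modified Eagle medium. Members were chosen by accession: every probe carrying a miRBase mature-sequence number from MIMAT0002822 to MIMAT0002869, the block that holds the miR-512, miR-498 and miR-515 to miR-527 names. This gave 47 probes of the 1001 in the table. Of the 48 numbers in the block, 47 had a probe.

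The deposited table does not pair accessions with miRNA names, and only MIMAT0002868 is named here, as miR-522. The other members are therefore given by their values, and no more than 2 accessions are given for each direction of change. The label hepatocellular could not be checked against the hepatocyte miRNA miR-122 for the same reason. With 1 array per condition no value below has a replicate error, no test was made, and each difference describes these 2 arrays.

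C19MC miRNAs are transcribed in tandem from the paternal allele of an imprinted locus, chiefly in the placenta and in early embryonic cells, and most adult tissues hold little of them. Each hairpin can give a mature miRNA from its 5′ arm and its 3′ arm, and a mature miRNA recognises its targets mainly through its seed, bases 2 to 8. Several C19MC 3′ arms carry a seed of the kind known from the miR-302 and miR-371 to miR-373 miRNAs of pluripotent cells and from the miR-17 family of proliferating cells. Some liver tumours have been described to express C19MC miRNAs.

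RefSeq (GRCh38.p14) holds 40 hairpins with these names on the cluster, at chr19:53666679-53762430, a span of 95.8 kb, all on the plus strand. RefSeq gives them 63 mature names but 52 distinct mature sequences, because 5 sequences are shared by several names. It lists only the 5p arm for MIR522, so counts of mature sequences here are of these entries and may miss members of the cluster. The sequences below show the likeness within the cluster that a hybridisation probe has to resolve, with the seed in capitals. They are RefSeq entries of the cluster and its seed relatives, and none is paired with a value of the arrays. The first set shares the seed AAGUGCU, which 5 cluster sequences and 7 other human miRNAs of the RefSeq table carry, among them miR-372-3p from the neighbouring chromosome 19 group (chr19:53787931-53787953, plus strand) and miR-302a-3p (chr4:112648186-112648208, minus strand).
hsa-miR-520c-3p: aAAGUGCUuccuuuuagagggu
hsa-miR-520b-3p: aAAGUGCUuccuuuuagaggg
hsa-miR-520e-3p: aAAGUGCUuccuuuuugaggg
hsa-miR-372-3p: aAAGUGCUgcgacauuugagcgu
hsa-miR-302a-3p: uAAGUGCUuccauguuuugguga

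The second set has the seed AAAGUGC, shared by 2 cluster sequences and 6 other human miRNAs of the miR-17 family, of which miR-17-5p (chr13:91350618-91350640, plus strand) is shown.
hsa-miR-519d-3p: cAAAGUGCcucccuuuagagug
hsa-miR-526b-3p: gAAAGUGCuuccuuuuagaggc
hsa-miR-17-5p: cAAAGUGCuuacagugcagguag

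The remaining pairs shown here have seeds that were found in no human mature sequence of the RefSeq table outside the cluster. Among the RefSeq entries, the seed of the miR-519 pair is carried by 3 distinct cluster sequences and that of the miR-518 pair by 5. The seed of the miR-517 pair is carried by 2 and that of the last pair by 3.
hsa-miR-519a-3p: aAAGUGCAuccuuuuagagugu
hsa-miR-519b-3p: aAAGUGCAuccuuuuagagguu
hsa-miR-518b: cAAAGCGCuccccuuuagaggu
hsa-miR-518c-3p: cAAAGCGCuucucuuuagagugu
hsa-miR-517a-3p: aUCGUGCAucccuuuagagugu
hsa-miR-517c-3p: aUCGUGCAuccuuuuagagugu
hsa-miR-522-5p: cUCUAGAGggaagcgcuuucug
hsa-miR-526a-5p: cUCUAGAGggaagcacuuucug

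The letters AAGUGC, which are common to the first 2 sets and to the miR-519 3′ arms, lay within bases 1 to 8 of 13 of the 52 cluster sequences (25%), against 28 of all 2351 distinct human mature sequences in the RefSeq table (1.19%). Many of the cluster sequences, but not all, are also close to another one along their whole length. Of the 52, 25 (48.1%) differed from another cluster sequence by at most 2 edits (substitutions, insertions or deletions), and 10 differed by 1. The sequence printed for miR-522-5p is shared letter for letter by 6 names of the cluster. Signal from such near-identical miRNAs may not be separable on the arrays. Other cluster sequences lay further apart, such as miR-512-5p and miR-512-3p at 9 and 8 edits from their nearest cluster sequence. Because accessions are not paired with sequences here, which of the member values below are uncertain in this way is not known.

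The table itself holds probes with several accessions, and whether these accessions share a sequence could not be checked here. Of its 5 probes with several accessions, 4 were C19MC members, and 1 of these carried 6 accessions. None of the 4 had an intensity on both arrays. One was listed on the Y27632 array only, at 2.9, and 2 on the control array only, at 3.1 and 3.5. The probe with 6 accessions had a value on neither array.

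Most C19MC probes had no intensity on one or both arrays. Of the 47 members, 16 (34.0%) had a value on the Y27632 array and 15 (31.9%) on the control array, against 61.3% and 61.8% of all 1001 probes on the same arrays. Both arrays listed 9 members (19.1%, against 51.8% of the whole table). The Y27632 array alone listed 7 (14.9%, against 9.49%), the control array alone listed 6 (12.8%, against 9.99%), and neither listed 25 (53.2%, against 28.7%). The cluster was thus listed less than the whole table on the Y27632 array and on the control array alike. An empty cell is called not listed, because no source used here says whether it marks a low signal or a rejected spot.

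The difference was also present against probes numbered next to the cluster. Of the 47 probes with the nearest lower accession numbers, both arrays listed 26 (55.3%), and of the 47 with the nearest higher numbers both listed 20 (42.6%). Neither array listed 14 (29.8%) and 18 (38.3%) of these 2 sets. These neighbouring sets were chosen after seeing the data and differ from the cluster in much besides their place in the genome.

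**Figure D1:**
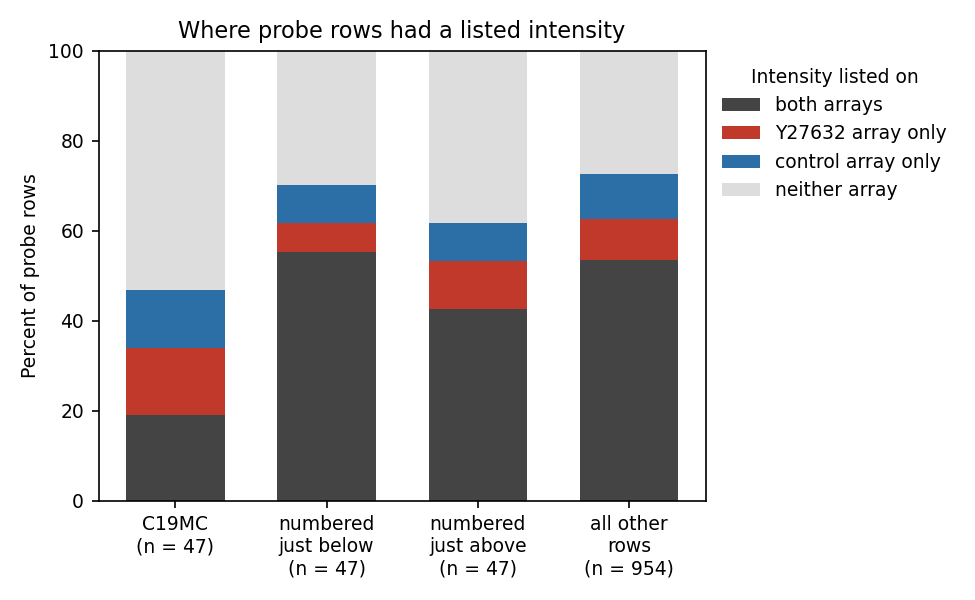
Percent of probes listed on both arrays, on the Y27632 array only, on the control array only or on neither, for the 47 C19MC probes, the 47 probes numbered just below, the 47 numbered just above and all 954 other probes. The C19MC bar has 19.1% of its probes on both arrays and 53.2% on neither, while the bar of all other probes has 53.5% and 27.5%.

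Where a C19MC probe was listed, its intensity was near the lower end of the array. The 16 values on the Y27632 array ran from 2.9 to 8.5 with a median of 3.9, and the 15 on the control array from 2.4 to 15.3 with a median of 3.1. The lowest intensity of any probe was 2.7 on the Y27632 array and 2.3 on the control array, and the median of all listed probes was 6.1 and 6.0. An intensity of at least 10 was reached by 0 members on the Y27632 array and by 1 member, miR-522, on the control array. Among all 1001 probes, 21.9% reached it on the Y27632 array and 22.2% on the control array. At a limit of 5, 6 members (12.8%) reached it with Y27632 and 4 (8.51%) in the control, against 36.9% and 36.4% of all probes. Each probe has its own brightness, so these values give no order of abundance among the miRNAs.

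**Figure D2:**
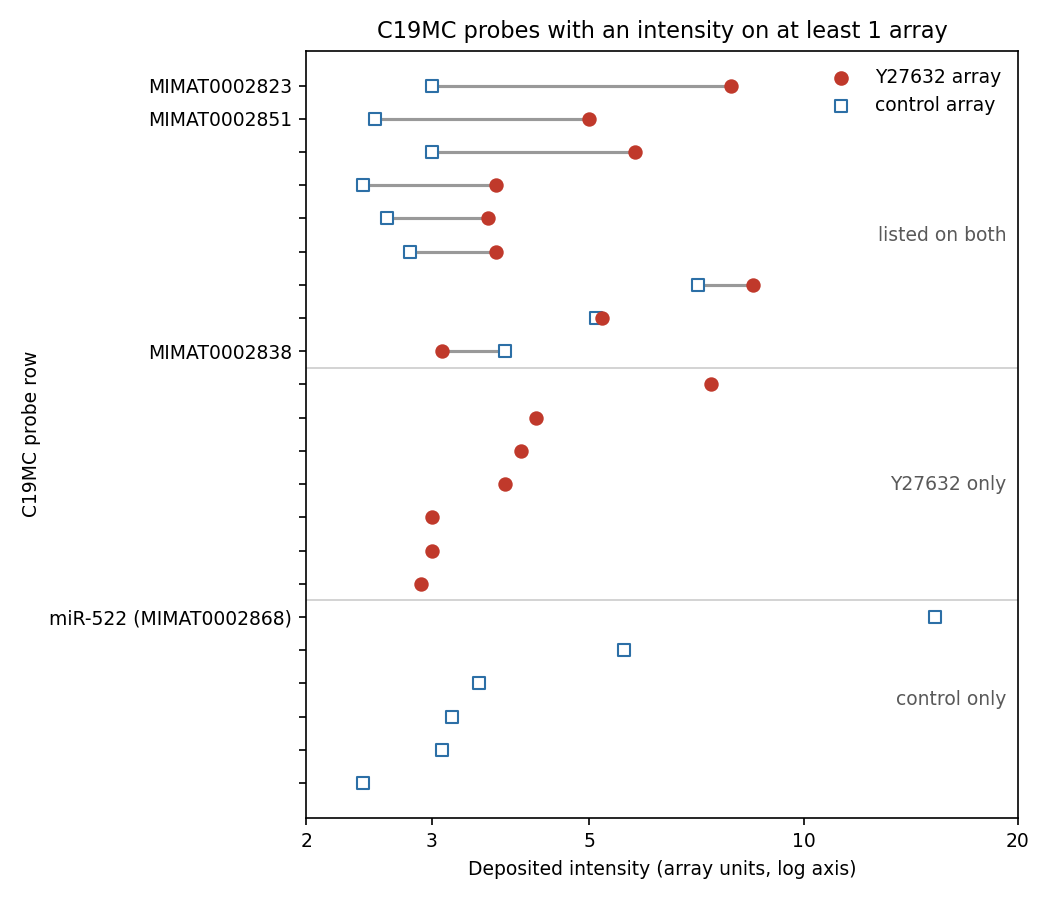
Deposited intensity (log axis) of the 22 C19MC probes listed on at least 1 array, with filled circles for the Y27632 array, open squares for the control array and a line joining both values of a probe; accessions are given only for the probes named in the text. In 8 of the 9 probes listed on both arrays the Y27632 value lies to the right of the control value, and miR-522 at 15.3 is the only point above 10.

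The miRNA that stood out among the members was miR-522. MIR522 lies at chr19:53751211-53751297 on the plus strand in RefSeq (GRCh38.p14), a miRNA gene within the span of the long non-coding RNA gene LOC124904765 (chr19:53738839-53752638). Its probe had no intensity on the Y27632 array and 15.3 on the control array, where 72.1% of listed probes were at or below that value. The next highest control-only member was at 5.6. Which arm of miR-522 the probe measures is not given in the sources used here. Its row carries 1 accession, whereas the miR-522-5p sequence printed above is shared by 6 names. The member with 6 accessions is another probe, with a value on neither array. RefSeq entries used here hold only the 5p arm of MIR522. The printed miR-522-5p sequence is therefore not to be taken as what this probe measures.

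An empty Y27632 cell at that control brightness was seen for no other probe. On the control array, all 74 probes outside the cluster with an intensity from 10 to below 20 were also listed on the Y27632 array, as were all 53 from 7 to below 10. At lower intensities listing on a single array was common. Of the probes outside the cluster at 2 to below 3 on the control array, 50.7% were also listed on the Y27632 array, and at 3 to below 4 it was 66.0%. No fold is given for miR-522, because the meaning of the empty cell is not stated, and what left it empty was not tested.

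**Figure D3:**
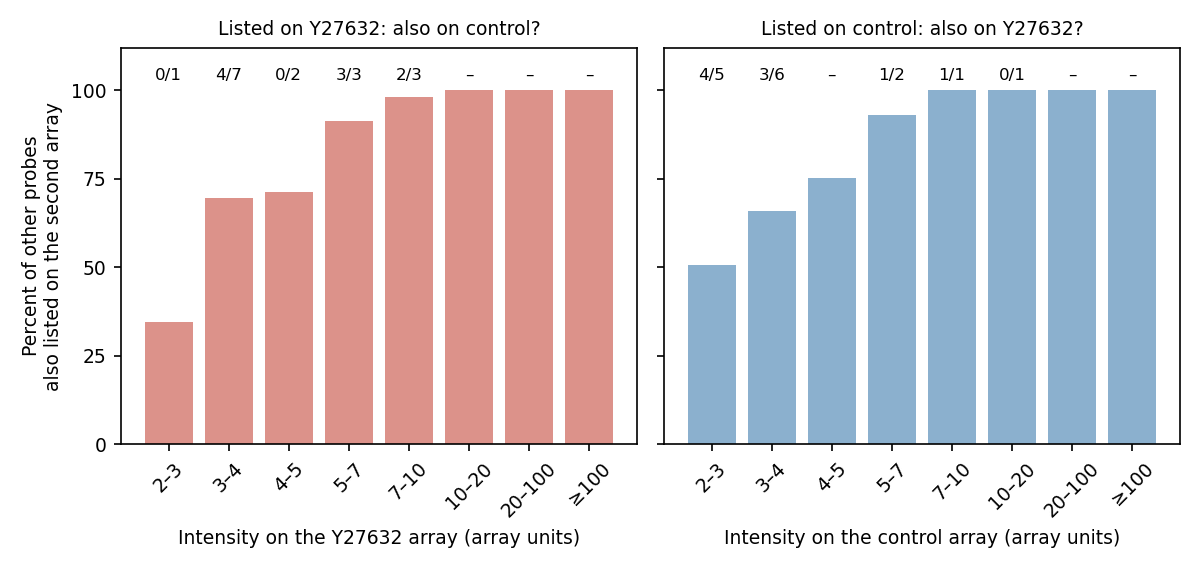
Percent of probes outside the cluster (bars) listed on one array, in bins of their intensity there, that were also listed on the other array, with the count of C19MC probes also listed over those in the bin written above each bar; each bin includes its lower limit. Above 10 all bars reach 100%, and the single C19MC probe there, miR-522 on the control array, was not listed on the Y27632 array.

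The other 5 control-only members read 2.4, 3.1, 3.2, 3.5 and 5.6. The 7 Y27632-only members read 2.9, 3.0, 3.0, 3.8, 4.0, 4.2 and 7.4. The last of these was also the highest Y27632-only value of the whole table, where the next was 7.0. Of the 52 probes outside the cluster at 7 to below 10 on the Y27632 array, 51 (98.1%) had a control value. Apart from miR-522, single-array listing among members was read against probes of their own intensity range. Of the 16 members listed on the Y27632 array (2.9 to 8.5), 9 (56.2%) were also listed on the control array, against 77.5% of the 347 other probes in that range. Of the 14 members other than miR-522 listed on the control array (2.4 to 7.1), 9 (64.3%) were also listed on the Y27632 array, against 72.0% of 332 other probes. Both shares rest on small numbers, 16 and 14 members, and the second was close to its background.

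The 9 members listed on both arrays allow a ratio, expressed as log2 of the Y27632 over the control intensity. MIMAT0002823 had an intensity of 7.9 on the Y27632 array and 3.0 on the control array, a log2 ratio of 1.40 (2.63-fold). It was the second highest of the 519 log2 ratios in the table. MIMAT0002851 read 5.0 on the Y27632 array and 2.5 on the control array, a log2 ratio of 1 that lies exactly at the 2-fold limit used here. Because intensities were deposited with 1 decimal, rounding alone allows any fold from 1.94 to 2.06 for that probe and from 2.57 to 2.69 for MIMAT0002823. After quantile normalization MIMAT0002851 was short of the limit, at 0.85, and after a lowess correction at 0.88. With a pseudocount of 3 MIMAT0002823 was also short of it, at 0.86, as was every one of the 519 probes in either direction. The member numbered directly before MIMAT0002823, read 5.8 with Y27632 and 3.0 in the control (log2 ratio 0.95, or 1.93-fold), short of the limit.

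The other ratios were smaller. One member read 3.7 with Y27632 and 2.4 in the control (log2 ratio 0.62). Another read 3.6 with Y27632 and 2.6 in the control (0.47). A further one read 3.7 with Y27632 and 2.8 in the control (0.40). The member with the highest values on both arrays among the 9 read 8.5 with Y27632 and 7.1 in the control (0.26), and it alone belonged to the brighter 50% of probes. Another was nearly equal on both arrays, at 5.2 with Y27632 and 5.1 in the control (0.03). MIMAT0002838 was the only member lower with Y27632, at 3.1 on the Y27632 array and 3.8 on the control array (log2 ratio -0.29).

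Together, 8 of the 9 members were higher on the Y27632 array and 1 was lower, with a median log2 ratio of 0.47. Over the 519 probes listed on both arrays, 48.6% were higher, 48.9% were lower and the median was 0. A ratio of at least 2-fold upward was reached by 2 of the 9 members, against 2.5% of the 519 probes. Downward it was reached by 0 of 9, against 0.578%. At a 1.5-fold limit, 4 members were higher, against 8.86% of all probes, and 0 were lower, against 5.39%.

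These counts need to be read against probes of like intensity, since the members sat where ratios spread most. Over the 254 probes, members included, whose geometric mean lay in the members' range (2.98 to 7.77), 52.0% were higher with Y27632 and 44.5% lower. At least 2-fold higher were 5.12%, at least 2-fold lower were 0.787%, and the median log2 ratio was 0.03. With the members left out, 50.6% of 245 probes were higher and 4.49% at least 2-fold higher. Of the 9 members, 6 had a control intensity of at most 3. All 6 were higher with Y27632, including both at or past 2-fold. Among the 48 probes of the table listed on both arrays with a control intensity of at most 3, however, 91.7% were higher with Y27632. Of these 48, which include the 6 members, 20.8% were at least 2-fold higher. Their median log2 ratio was 0.53 (0.79 for the 6 members). These 48 probes were chosen by the value that is the denominator of the ratio, and the lowest intensity listed on the Y27632 array was 2.7, so upward ratios among them, and among the 6 members, are largely fixed by the choice. This share therefore says nothing about what made the members higher. The 3 members above that level had log2 ratios of 0.26, 0.03 and -0.29. With 1 array per condition, an effect of Y27632 on these ratios and a difference between the 2 arrays cannot be told apart.

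Set against the 100 probes nearest in brightness, MIMAT0002823 lay 3.13 robust standard deviations (scaled median absolute deviation) above their median. The next were MIMAT0002851 at 1.73 and the member numbered before MIMAT0002823 at 1.70. The remaining 6 members lay between -0.81 and 1.06, within the ordinary spread of such probes. This spread runs across probes and is not a replicate error.

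**Figure D4:**
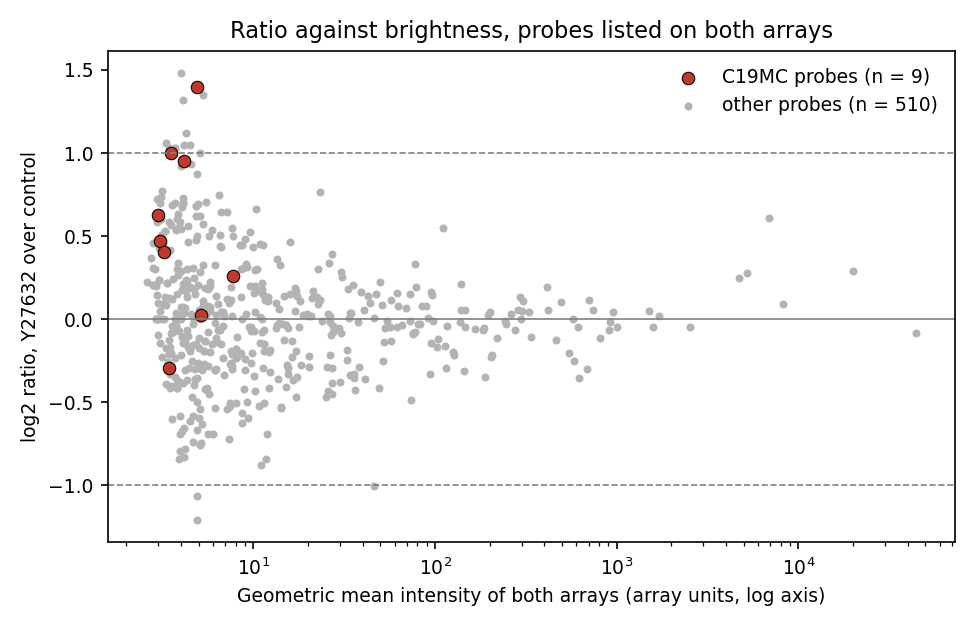
The log2 ratio of the Y27632 over the control intensity against the geometric mean of both intensities (log axis) for the 9 C19MC probes and the 510 other probes listed on both arrays, with dashed lines at 2-fold. The C19MC probes all lie at geometric means from 2.98 to 7.77, where the ratios of other probes also spread widely, and MIMAT0002823 at 1.40 is their highest point.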

How the data were processed

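Total RNA from 2 cultures was labelled with the dye Hy5 by an Exiqon miRCURY kit and read on single-colour miRNA arrays, per the labels' protocols. The deposited values are array intensities, taken as linear from their range and long upper tail. How the authors corrected background, normalized or set a detection limit is not given in the sources used here. Precision is limited by there being 1 array per condition.

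Log2 ratios were computed from the deposited intensities without normalization or pseudocount, for probes with both values. The limit was 2-fold. Alternatives were quantile normalization, median centring, lowess (fraction 0.4), a pseudocount of 3 (mean of both arrays' 10th percentiles), Y27632 values lowered by 0.4 (the gap between the arrays' lowest values), missing values set to the lowest listed, the brighter 50%, a 1.5-fold limit, and listing limits of 5 and 10. The members and lists were chosen with earlier results of these data known. By rule, members reaching 10, listed once, with several accessions or among the 8 largest ratios in each direction were to be named; unpaired accessions limited this, and they are given by value. Comparisons by name with the later-registered C19MC miRNAs, the miR-371 to miR-373 group and the 14q32 cluster, and values of outside probes sharing a member's seed, were not made for the same reason. Sequences are from RefSeq, GRCh38.p14. Tools were matplotlib 3.10.9, statsmodels 0.14.6, scipy 1.17.1, pandas 2.3.3 and numpy 2.4.6, under Python 3.11.15.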

Additional observations from a re-analysis of the deposited data

Results flagged for a closer look

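The Y27632 array alone gave an intensity for 7 C19MC probes, and these were singled out because the control gave nothing to set them against. Their highest value was 7.4 and their median 3.8, and 6 of the 7 were at or below 4.2. What an empty control cell stands for was not tested.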

How the results depend on the processing

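The median log2 ratio of the members was 0.28 with quantile normalization, 0.49 with median centring, 0.30 with lowess (0.298) and 0.24 with the pseudocount. It was 0.30 with Y27632 values lowered by 0.4 (0.29956). Over the 22 members with missing values set to the lowest listed it was 0.38, and for the 1 member in the brighter 50% it was 0.26. A pseudocount cannot change the sign of a ratio, and median centring moves every ratio by the same amount. Filling gives every Y27632-only member a positive ratio by construction. A median above 0 under these 3 settings was thus largely fixed beforehand. Quantile normalization, lowess and lowered Y27632 values could change signs, and with lowered values 7 members were above 0 and 2 below. All settings use the same 2 arrays, so no support is drawn from any of these medians. Members at least 2-fold higher numbered 2 as deposited, with 13 of all 519 probes. They numbered 1 with quantile normalization, lowess or lowered Y27632 values (5, 8 and 5 of all 519), 0 with the pseudocount (0 of 519) or in the brighter 50% (0 of 260), and 4 at the 1.5-fold limit (46 of 519). With missing values filled, 3 members were higher and 2 lower (33 and 8 of all 714). The added higher member (7.4 with Y27632) and both lower ones (miR-522, and the member at 5.6 in the control) were counted through the filled value alone. Their folds are not given, because the meaning of an empty cell is not stated. Under the other settings 0 members were at least 2-fold lower. MIMAT0002823 stayed past 2-fold with quantile normalization, lowess, median centring and lowered Y27632 values, but not with the pseudocount (0.86). It was outside the brighter 50%. Filling leaves its ratio unchanged, since it was listed on both arrays, and median centring shifts all ratios alike. The member at 5.2 with Y27632 and 5.1 in the control reversed to a log2 ratio of -0.087 with lowered Y27632 values, by construction. Listed members fell to 12.8% with Y27632 and 8.51% in the control at a limit of 5, and to 0% and 2.13% at 10. Adding later-registered C19MC miRNAs by name was not run. No paired analysis was possible because there is a single array for Y27632 and a single one for the control, and for that reason no replicate could be left out. Low intensity limits most members, since only miR-522 reached 10; signal over background could not be examined.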
